A study of Mus musculus with 12 samples.

Results

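Tau and its kinases were followed as 9 genes. Mapt encodes tau, and Cdk5, Gsk3a, Gsk3b, Mark1, Mark2 and Mark4 are kinase genes. Cdk5r1 and Cdk5r2 encode activators of Cdk5. The 9 genes were taken by gene name from the 23352 entries of the deposited table, with earlier results of these data known. Each was found once, and all 9 passed the filter on low values that left 13945 genes for testing. The table holds FPKM (fragments scaled by transcript length and by the library's total of mapped fragments) for poly-A RNA of mouse hippocampus.

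N40K transgenic mice of the Tg396 line carry a shortened form of U1-70K, the splicing protein encoded by Snrnp70, which a modified CaMKIIa promoter drives in neurons. Their comparators were non-transgenic wild type littermates, and both genotypes had the C57BL/6J strain. The 12 libraries formed 4 groups of 3: N40K at 12 months, wild type at 12 months, N40K at 3 months and wild type at 3 months. The transgenic mice came from 1 line, so effects of that line's insertion site cannot be told apart from those of the shortened protein.

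Tau binds microtubules in axons, and its phosphorylation at many serine and threonine residues lowers that binding. In Alzheimer's disease, heavily phosphorylated tau forms neurofibrillary tangles in the hippocampus and cortex. Cdk5 is a proline-directed kinase that is inactive alone and needs p35 (Cdk5r1) or p39 (Cdk5r2). Gsk3a and Gsk3b encode the glycogen synthase kinase 3 paralogs, which often act on sites primed by another kinase, and the Mark kinases phosphorylate KXGS motifs in tau's microtubule-binding repeats. Kinase activity is set largely by phosphorylation, partner proteins and cleavage, which RNA levels do not measure.

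Snrnp70 checked the genotype labels, with 294 ± 31.9 FPKM in N40K and 122 ± 23.0 FPKM in wild type at 12 months, and 392 ± 13.1 FPKM in N40K and 173 ± 10.5 FPKM in wild type at 3 months (SD, n = 3 each). Approximate depth, at which many low values of receptor genes came near whole reads, was 39.76 to 96.9 M reads a library. The correlation between libraries of a group was 0.988 to 0.997. Pan-neuronal, astrocyte, oligodendrocyte and microglial markers were detected in every group, and no marker lay below 0.1 FPKM in all 12 libraries. Ttr, a transcript of the choroid plexus, ran from 25.2 to 5813 FPKM between libraries, and Xist was at 13.5 FPKM or more in wild type replicates 2 and 3 and N40K replicate 3 at 3 months and at or below 0.112 FPKM in the other libraries. Xist is transcribed from the inactive X chromosome of females. The labels give no sex, and by these values its make-up was uneven: 0 of 6 libraries had high Xist at 12 months, and at 3 months 1 of 3 N40K and 2 of 3 wild type libraries did. In bulk tissue, fewer cells of a type and less RNA per cell cannot be told apart. Nothing in the labels says which libraries came from which mouse, so p-values measure the spread between these libraries.

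Gsk3a had the highest level per transcript length, with a mean of 97.3 FPKM over the 12 libraries, above 95.8% of the genes tested. Mapt followed at 78.2 FPKM and Cdk5 at 51.9 FPKM. The activator genes Cdk5r2 (39.2 FPKM) and Cdk5r1 (38.7 FPKM) were not separated, since Cdk5r2 was above Cdk5r1 in 6 of 12 libraries. Mark4 came next at 25.9 FPKM. Mark2 (18.9 FPKM) and Gsk3b (17.3 FPKM) were not separated either, with Mark2 the higher in 7 of 12 libraries. Mark1 had the lowest level, 13.6 FPKM, which still lay above 62.3% of the genes tested. The other neighbours in this order kept it in 12 of 12 libraries.

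**Figure D1:**
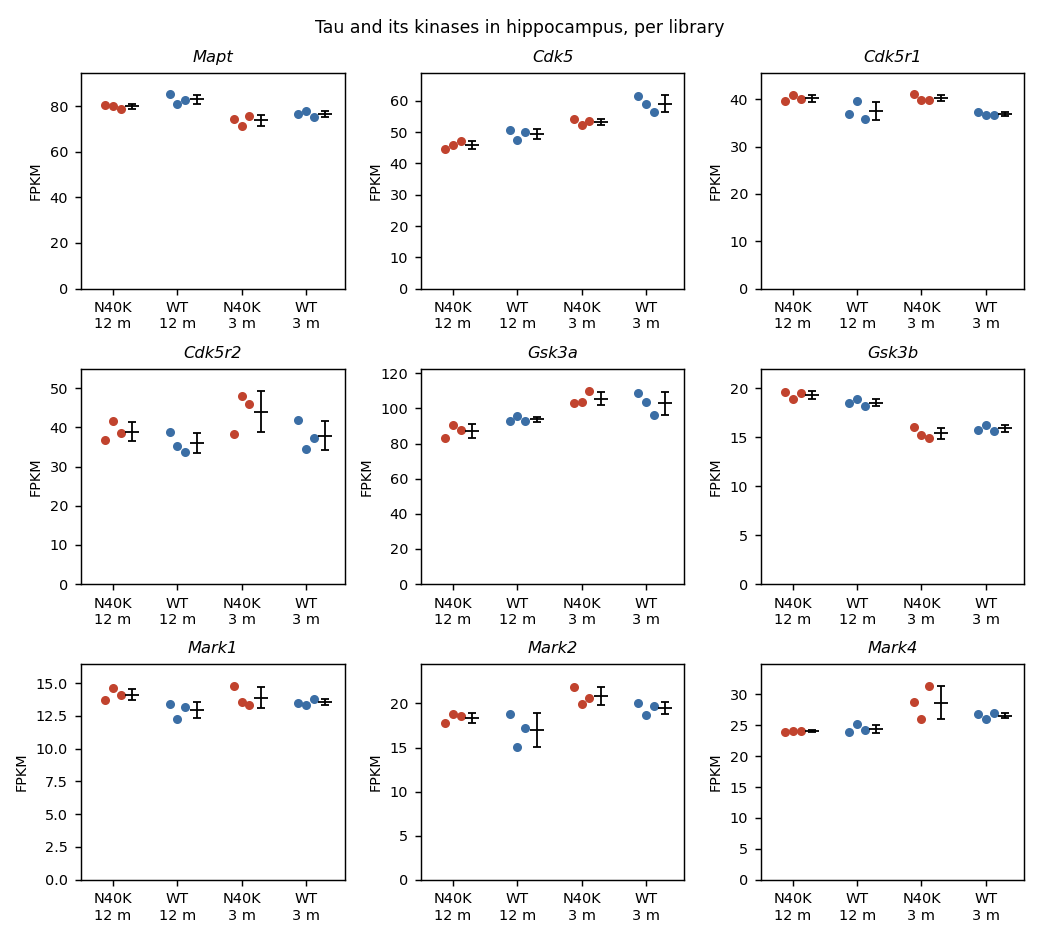
FPKM of the 9 genes in each library (red dots N40K, blue dots wild type, black bars mean ± SD of 3 libraries), in 4 groups along the horizontal axis. Cdk5 lies lower in N40K than in wild type at each age, and Gsk3b lies higher at 12 than at 3 months in both genotypes.

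The comparison of genotypes asks whether neuronal N40K changed the RNA of tau, of these kinases or of the Cdk5 activators. Differences were small throughout: the 18 values over 9 genes and 2 ages ran from 0.903-fold to 1.16-fold, on the scale of log2(FPKM + 1) used for all tests. The farthest end of any 95% interval was 1.33-fold, for Cdk5r2 at 3 months.

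At 12 months 0 of 9 genes passed an adjusted p of 0.05 (limma, Benjamini-Hochberg over all genes), where 18.9% of all tested genes did (11.2% higher and 7.71% lower in N40K). At an unadjusted 0.05, 3 of the 9 did, where 34.4% of all tested genes did. At 3 months 1 of 9 passed, Cdk5, against 11.4% of all tested genes (7.95% higher and 3.49% lower). Averaged over both ages 2 of 9 passed, Cdk5 and Cdk5r1, against 25.0% of all tested genes (15.5% higher and 9.54% lower). These shares of the 9 are near or under the background. Among all genes called at 3 months, 69.5% were higher in N40K, and 53.5% with median-ratio scaling.

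Mapt had 80.5, 80.2 and 78.7 FPKM in N40K and 85.1, 81.1 and 82.8 FPKM in wild type at 12 months. At 3 months it had 74.5, 71.1 and 75.8 FPKM in N40K and 76.3, 77.7 and 75.0 FPKM in wild type. The N40K libraries were the lower ones at 12 months without overlap, and the groups overlapped at 3 months. The log2 difference was -0.06 at 12 months (95% interval -0.14 to 0.03, limma adjusted p = 0.317) and -0.05 at 3 months (-0.13 to 0.03, adjusted p = 0.457). Neither passed the test, and with quantile normalization the 12-month value was 0.03.

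Cdk5 was lower in N40K. It had 44.8, 45.9 and 47.0 FPKM in N40K and 50.6, 47.6 and 50.2 FPKM in wild type at 12 months. At 3 months it had 54.1, 52.2 and 53.5 FPKM in N40K and 61.7, 59.1 and 56.4 FPKM in wild type. Every N40K library lay below every wild type library of its age, which was so in this direction at both ages for 5.78% of all tested genes (10.3% in the other direction). The averaged log2 difference was -0.13 ± 0.03 (SE; 0.916-fold, limma adjusted p = 0.0103), and it passed under all 24 alternatives run, with adjusted p from 0.00316 to 0.0305. At 3 months alone the value was -0.15 ± 0.04 (adjusted p = 0.0469), a call lost under 15 of 25 alternatives, among them the removal of any 1 library other than wild type replicate 3 at 3 months or wild type replicate 2 at 12 months (adjusted p up to 0.156). At 12 months alone it was -0.11 ± 0.04 (adjusted p = 0.105).

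Cdk5r1, the gene of p35, was higher in N40K. It had 39.6, 41.0 and 40.01 FPKM in N40K and 36.8, 39.7 and 35.9 FPKM in wild type at 12 months. In the 3-month libraries Cdk5r1 had 41.1, 39.9 and 39.8 FPKM in N40K and 37.3, 36.6 and 36.7 FPKM in wild type. The groups did not overlap at 3 months, and at 12 months wild type replicate 2 reached the N40K range. The averaged log2 difference was 0.11 ± 0.03 (SE; 1.08-fold, limma adjusted p = 0.0144), and it passed under all 24 alternatives run, with adjusted p from 0.00176 to 0.0489. By age the values were 0.10 ± 0.04 at 12 months (adjusted p = 0.106) and 0.12 ± 0.04 at 3 months (adjusted p = 0.0707). Without wild type replicate 2 at 12 months, the 12-month value was 0.14 (adjusted p = 0.0195) and the 3-month adjusted p was 0.0178, so both passed.

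Cdk5r2, the gene of p39, had 36.7, 41.5 and 38.6 FPKM in N40K and 38.7, 35.2 and 33.7 FPKM in wild type at 12 months. At 3 months it had 38.2, 48.0 and 45.9 FPKM in N40K and 41.9, 34.5 and 37.3 FPKM in wild type. The groups overlapped at both ages, and the spread was wider than for Cdk5r1. The averaged log2 difference was 0.16 ± 0.07 (limma adjusted p = 0.0915), and was not called. Without N40K replicate 1 at 3 months, the library with 38.2 FPKM, it was 0.21 (adjusted p = 0.0233), and the 3-month value was 0.31 (adjusted p = 0.0472).

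Within a library, the ratio of 2 genes does not depend on a factor applied to the whole library. The ratio of Cdk5r1 to Cdk5 was 0.876 ± 0.0224 in N40K and 0.759 ± 0.0649 in wild type at 12 months, and 0.757 ± 0.0105 in N40K and 0.625 ± 0.0237 in wild type at 3 months (SD, n = 3 each). The N40K libraries had the higher ratio at each age without overlap, from 0.851 to 0.893 against 0.716 to 0.834 at 12 months and from 0.745 to 0.765 against 0.605 to 0.651 at 3 months. The ratio restates the 2 gene differences above and was given no test. The transcripts of Cdk5r1 and Cdk5 differ in length (4162 and 2059 bases), and the part of length in this ratio was not tested.

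**Figure D2:**
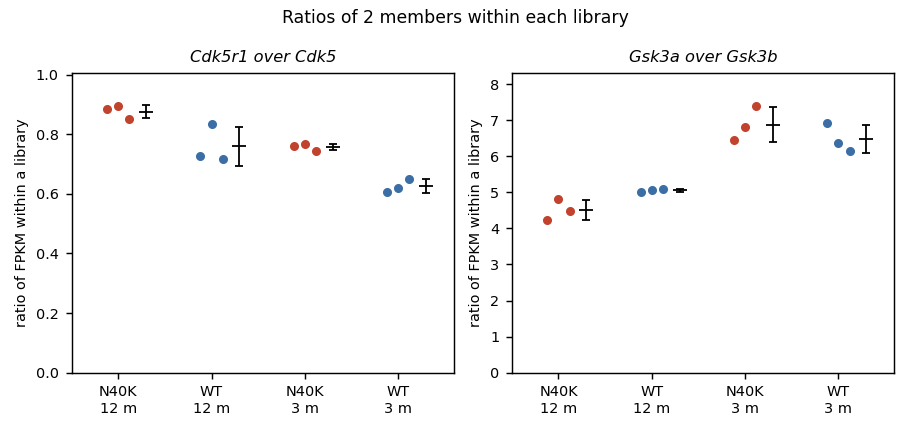
Ratio of FPKM within each library (dots; black bars mean ± SD of 3 libraries) for Cdk5r1 over Cdk5 on the left and Gsk3a over Gsk3b on the right. The first ratio is higher in N40K than in wild type at each age, and the second is lower at 12 months (4.23 to 5.10) than at 3 months (6.15 to 7.39).

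The glycogen synthase kinase 3 genes are shown with the 250 bases before their start sites, because their values as deposited differed in opposite directions with age. The Gsk3a difference was called in N40K and not in wild type, and its sign changed with the GC trend removed. With the length trend removed, the Gsk3b difference was 0.06 in N40K and 0.03 in wild type, and neither was called. Both sequences are from RefSeq on GRCm38.p6, and capitals mark the GC box CCGCCC or its complement GGGCGG, searched on both strands.
Gsk3a, chr7:25237852-25238101, minus strand: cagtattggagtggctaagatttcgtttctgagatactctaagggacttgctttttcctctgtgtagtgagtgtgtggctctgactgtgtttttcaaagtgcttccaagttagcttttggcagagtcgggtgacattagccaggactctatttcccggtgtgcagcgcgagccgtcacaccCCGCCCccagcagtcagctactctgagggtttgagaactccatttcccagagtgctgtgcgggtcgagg
Gsk3b, chr16:38088751-38089000, plus strand: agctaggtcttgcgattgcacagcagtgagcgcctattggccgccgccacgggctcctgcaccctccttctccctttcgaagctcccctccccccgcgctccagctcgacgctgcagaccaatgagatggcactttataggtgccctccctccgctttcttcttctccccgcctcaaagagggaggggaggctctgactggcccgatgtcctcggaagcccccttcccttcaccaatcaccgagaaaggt
The Gsk3a window held 1 GC box and 9 CpG dinucleotides at 52.0% GC, and the Gsk3b window held 0 GC boxes and 15 CpG dinucleotides at 62.0% GC. Of 32851 windows of this kind, 32.7% held the motif on either strand, and their median GC content was 52.4%. A match is a description of the letters and not a binding site.

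Gsk3a had 83.0, 90.7 and 87.4 FPKM in N40K and 92.8, 95.5 and 92.8 FPKM in wild type at 12 months. At 3 months it had 103, 103 and 110.0 FPKM in N40K and 109, 103 and 96.2 FPKM in wild type. The groups did not overlap at 12 months and overlapped at 3 months. The log2 difference was -0.11 ± 0.05 at 12 months (limma adjusted p = 0.173) and 0.04 ± 0.05 at 3 months (adjusted p = 0.710). Gsk3a overlaps 9130221H12Rik on the opposite strand, which had 40.8 to 43.8 FPKM in N40K and 44.4 to 45.0 FPKM in wild type at 12 months, and 51.4 to 53.6 FPKM in N40K and 49.0 to 54.0 FPKM in wild type at 3 months. Whether counting used strand was not given, so reads of this pair cannot be told apart.

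Gsk3b had 19.6, 18.9 and 19.5 FPKM in N40K and 18.5, 18.9 and 18.2 FPKM in wild type at 12 months. Its 3-month values were 16.0, 15.2 and 14.9 FPKM in N40K and 15.8, 16.3 and 15.7 FPKM in wild type. The genotypes overlapped at each age. The log2 difference was 0.06 ± 0.04 at 12 months (limma adjusted p = 0.320) and -0.05 ± 0.04 at 3 months (adjusted p = 0.521).

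Mark1 had 13.7, 14.6 and 14.1 FPKM in N40K and 13.4, 12.3 and 13.2 FPKM in wild type at 12 months, without overlap. Its log2 difference of 0.12 ± 0.05 at that age did not pass (limma adjusted p = 0.122), and at 3 months it was 0.03 ± 0.05 (adjusted p = 0.739). Mark2 had 17.7 to 18.8 FPKM in N40K and 15.0 to 18.8 FPKM in wild type at 12 months, and 19.9 to 21.9 FPKM in N40K and 18.7 to 20.1 FPKM in wild type at 3 months. Mark4 had 23.9 to 24.2 FPKM in N40K and 24.0 to 25.2 FPKM in wild type at 12 months, and 25.9 to 31.3 FPKM in N40K and 26.1 to 26.9 FPKM in wild type at 3 months. Mark2 and Mark4 overlapped between genotypes at both ages and were not called. Without wild type replicate 1 at 12 months, the averaged Mark2 value was 0.14 (adjusted p = 0.0401).

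**Figure D3:**
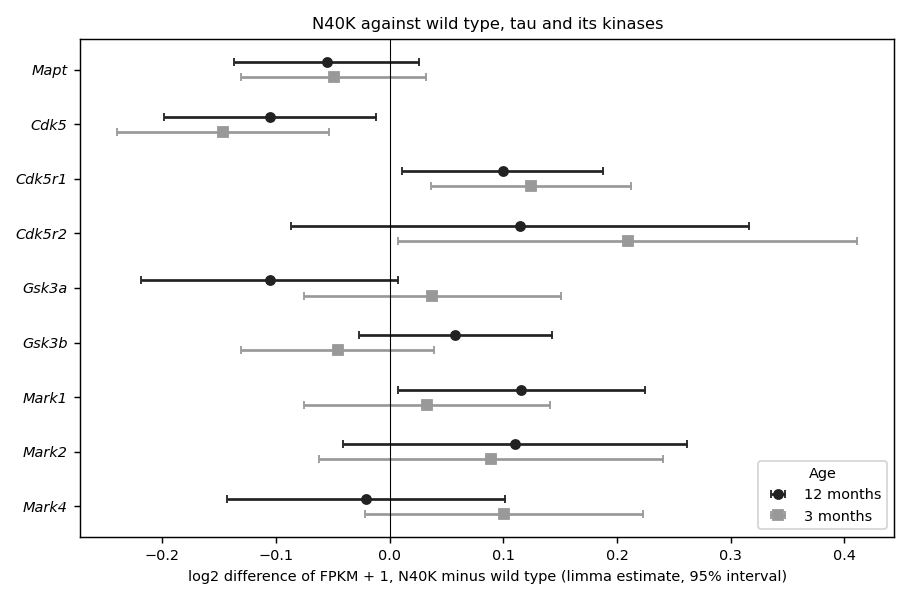
Difference between N40K and wild type in log2(FPKM + 1) for each gene (limma estimate with its 95% interval), at 12 months (circles) and 3 months (squares). Values lie between -0.15 and 0.21, and Cdk5 is negative and Cdk5r1 positive at both ages.

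Counted without a model, 4 of 9 genes did not overlap between genotypes at 12 months (Cdk5, Gsk3a and Mapt lower in N40K, Mark1 higher), as did 38.8% of all tested genes (21.3% higher and 17.5% lower). At 3 months 2 of 9 did not overlap (Cdk5 lower, Cdk5r1 higher), as did 31.9% of all tested genes (20.4% higher and 11.5% lower). The genotype difference itself was compared between ages by an interaction term, and 0 of 9 genes passed (0.0645% of all tested genes did, 0.0359% higher and 0.0287% lower). At an unadjusted 0.05, 0 of 9 passed, where 14.3% of all tested genes did, and the smallest limma adjusted p was 0.399, for Gsk3a.

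Marker lists of cell types differed in direction in the same comparison. Of all tested genes, 11.2% were called higher and 7.71% lower at 12 months, 7.95% and 3.49% at 3 months, and 15.5% and 9.54% averaged. Of 8 pan-neuronal markers, 3 fell and 0 rose in N40K at 12 months, 1 fell at 3 months, and 4 fell averaged over both ages, with a median log2 difference of -0.16, against 0.01 over all genes. Their summed level was 2026 to 2027 FPKM in N40K and 2141 to 2398 FPKM in wild type at 12 months, and 2085 to 2261 FPKM in N40K and 2161 to 2424 FPKM in wild type at 3 months. Oligodendrocyte markers summed to 1424 to 1519 FPKM in N40K and 1586 to 1725 FPKM in wild type at 12 months. At 3 months these sums overlapped, at 1569 to 2064.5 FPKM in N40K and 1763 to 2150 FPKM in wild type. Averaged over both ages, 1 of these 8 markers fell. Of 8 markers of hippocampal pyramidal and granule neurons, 1 rose and 1 fell at 12 months, 1 fell at 3 months, and 1 rose and 2 fell averaged. Their median log2 difference was 0.0085 at 12 months, 0.16 at 3 months and 0.06 averaged, where the pan-neuronal medians were negative. The 12-month value was near the 0.0066 of all tested genes, and 4 of these 8 markers were above 0 at that age. Of 6 endothelial and mural markers, 2 rose at 12 months, and their sum was 53.5 to 57.9 FPKM in N40K and 47.7 to 49.8 FPKM in wild type. At 3 months 0 of the 6 were called. Their sums then overlapped, at 53.4 to 56.1 FPKM in N40K and 51.0 to 59.5 FPKM in wild type. The 6 interneuron markers had a median of -0.07 averaged. The part of these levels in the Cdk5 and Cdk5r1 differences was not tested.

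More of these genes were called between ages than between genotypes. Age coincides with separate ranges of library numbers, so age and processing cannot be told apart. With Xist as a covariate, genes called with age numbered 6601 in N40K, against 7200 without it, and 4246 in wild type, against 5803. In N40K 5 of 9 genes passed between 12 and 3 months, where 51.6% of all tested genes did (15.1% higher and 36.5% lower at 12 months). In wild type 4 of 9 passed, where 41.6% of all tested genes did (12.6% higher and 29.0% lower). Groups did not overlap between ages for 6 of 9 genes in N40K, as for 62.8% of all tested genes (19.1% higher and 43.7% lower), and for 5 of 9 in wild type, as for 50.3% (15.7% higher and 34.5% lower). These shares are near the background.

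Gsk3b was higher at 12 months in both genotypes without overlap, by 0.31 ± 0.04 in N40K (1.24-fold, limma adjusted p = 8.56e-05) and 0.21 ± 0.04 in wild type (1.16-fold, adjusted p = 0.00163). Mapt was higher too, by 0.11 ± 0.04 in N40K (adjusted p = 0.0250) and 0.12 ± 0.04 in wild type (adjusted p = 0.0243), and its groups did not overlap. Cdk5 was lower at 12 months, with differences of -0.21 ± 0.04 in N40K (adjusted p = 0.00178) and -0.25 ± 0.04 in wild type (adjusted p = 9.41e-04), again without overlap. Gsk3a differed by -0.27 ± 0.05 in N40K (adjusted p = 0.00112) and -0.13 ± 0.05 in wild type (adjusted p = 0.0600, not called). Mark4 differed by -0.24 ± 0.06 in N40K (adjusted p = 0.00423) and -0.12 ± 0.06 in wild type (adjusted p = 0.112, not called). Mark2 differed by -0.17 ± 0.07 in N40K (adjusted p = 0.0569, not called) and -0.19 ± 0.07 in wild type (adjusted p = 0.0432). The last call was lost under 15 of 24 alternatives, including without N40K replicate 3 or wild type replicate 1 or 3 at 3 months, and without any N40K library or wild type replicate 2 or 3 at 12 months (-0.11 without wild type replicate 2). Calls were gained for Mark2 in N40K without wild type replicate 1 or 2 at 12 months, Cdk5r2 in N40K without N40K replicate 1 at 3 months (-0.26), Gsk3a in wild type without wild type replicate 3 at 3 months (-0.18) and Mark4 in wild type without N40K replicate 2 at 3 months. Cdk5r1 differed by -0.0033 in N40K (adjusted p = 0.953) and 0.02 in wild type (adjusted p = 0.695), and neither passed. Mark1 differed by 0.02 in N40K (adjusted p = 0.717) and -0.06 in wild type (adjusted p = 0.357). Cdk5r2 differed by -0.17 in N40K (adjusted p = 0.146) and -0.07 in wild type (adjusted p = 0.547). Of these, Cdk5r1 passed with the GC trend removed, at 0.16 in N40K (adjusted p = 0.0115) and 0.14 in wild type (adjusted p = 0.0204), and in N40K under quantile normalization, at 0.13 (adjusted p = 0.00829). The interaction term given above is also the test of whether the age difference varied with genotype.

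Transcript length and GC content moved with these age values. Over all tested genes the median age difference in N40K was -0.25 in the shortest of 5 equal bins of transcript length and 0.15 in the longest, which holds Mapt (5253 bases) and Gsk3b (8303 bases). In wild type these medians were -0.16 and 0.10. By GC content the medians in N40K were 0.03 in the lowest of 5 bins and -0.29 in the highest, which holds Cdk5r2, Gsk3a, Mark2 and Mark4. In wild type they were 0.02 and -0.20. The median of all genes was -0.10 in N40K and -0.08 in wild type, and -0.01 in both after median-ratio scaling. That scaling raised the share of higher genes among those called to 51.6% from 29.3% in N40K and to 50.7% from 30.3% in wild type. Genotype differences had smaller trends. From the shortest to the longest bin, their medians were -0.04 and 0.07 at 12 months and 0.05 and -0.0047 at 3 months. From the lowest to the highest GC bin, they were 0.0064 and 0.0093 at 12 months and -0.01 and 0.08 at 3 months. With the length or the GC trend removed, the averaged Cdk5 and Cdk5r1 genotype calls were kept. Genotype values of other members that changed sign are given in the last section. What share of the genotype values these trends made up was not tested.

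With the length trend removed, the Gsk3b age difference was 0.06 in N40K (limma adjusted p = 0.314) and 0.03 in wild type (adjusted p = 0.561), so both calls ended. Removing it also ended the Cdk5 calls, at -0.01 in N40K (adjusted p = 0.925) and -0.11 in wild type (adjusted p = 0.0874), the Mapt call in N40K, at 0.07 (adjusted p = 0.160), and the Gsk3a call in N40K, at -0.09 (adjusted p = 0.198). With the GC trend removed, Gsk3a turned to 0.03 in N40K and 0.08 in wild type, and Mark4 to 0.08 in N40K and 0.10 in wild type. The Cdk5 and Mark4 calls in N40K ended under median-ratio scaling as well, at -0.10 (adjusted p = 0.0926) and -0.13 (adjusted p = 0.0841). The Mapt call was lost in N40K without N40K replicate 2 at 3 months or replicate 1 or 2 at 12 months, and in wild type without wild type replicate 1 or 3 at either age.

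**Figure D4:**
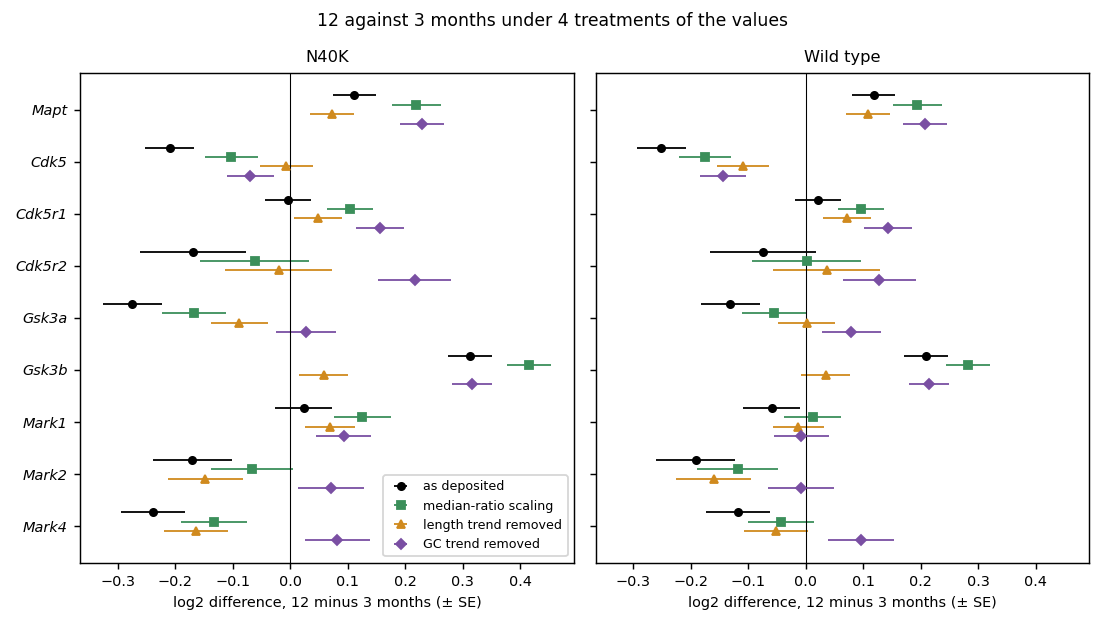
Difference between 12 and 3 months in log2 value for each gene (limma estimate ± SE) in N40K on the left and wild type on the right, as deposited and after 3 other treatments of the values. Gsk3a and Mark4 change sign with the GC trend removed, and Gsk3b lies near 0 with the length trend removed.

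The ratio of Gsk3a to Gsk3b within a library was 4.51 ± 0.288 in N40K and 5.06 ± 0.0477 in wild type at 12 months, and 6.88 ± 0.480 in N40K and 6.47 ± 0.395 in wild type at 3 months (SD, n = 3 each). All 6 libraries at 12 months lay below all 6 at 3 months. The 2 transcripts differ in length (2260 and 8303 bases) and GC content (59.8% and 46.1%), and the part of the trends above in this ratio was not tested.

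Other enzymes that act on tau were counted from lists chosen by function. Of 28 other tau kinases 27 were tested (Mapk13 was not), and 2 rose and 3 fell in N40K at 12 months, 1 rose and 2 fell at 3 months, and 1 rose and 3 fell averaged over both ages. Their median averaged log2 difference was 0.03, against 0.01 over all genes. Of all tested genes, 11.2% were higher and 7.71% lower at 12 months, 7.95% and 3.49% at 3 months, and 15.5% and 9.54% averaged. The 12-month count was 2 to 5 under the alternatives, with 2 when each age was fitted alone or without N40K replicate 1 at 12 months, and 3 without N40K replicate 2 at 12 months or replicate 3 at 3 months. It was 3 as well when every gene was tested, with Ttr as a covariate or with the replicate block. The averaged count of 4 was 7 without wild type replicate 1 at 12 months. With age, 9 rose and 8 fell in N40K, where 15.1% of all tested genes were higher and 36.5% lower, and 8 rose and 9 fell in wild type, where 12.6% were higher and 29.0% lower.

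Ttbk1 encodes tau tubulin kinase 1, a neuronal kinase of tau. It had 10.1, 10.2 and 10.5 FPKM in N40K and 13.2, 13.0 and 13.6 FPKM in wild type at 12 months, and 8.44, 7.50 and 8.14 FPKM in N40K and 9.99, 9.37 and 9.92 FPKM in wild type at 3 months. It fell by 0.34 at 12 months (limma adjusted p = 0.00102) and by 0.25 at 3 months (adjusted p = 0.00647). Mapk10 encodes the neuronal Jun kinase JNK3. It had 46.1, 46.4 and 45.7 FPKM in N40K and 53.3, 57.4 and 52.3 FPKM in wild type at 12 months, and 40.4, 39.0 and 41.8 FPKM in N40K and 49.5, 51.7 and 46.7 FPKM in wild type at 3 months. It fell by 0.23 at 12 months (adjusted p = 0.00732) and by 0.28 at 3 months (adjusted p = 0.00405). Neither gene overlapped between genotypes at either age, and both kept their calls under all 25 alternatives at each age. Mark3, the family member outside the 9 genes, rose by 0.14 at 12 months (adjusted p = 0.0256), a call lost without N40K replicate 1 or 2 or wild type replicate 1 at that age. Camk2a, whose promoter in modified form drives the transgene, differed by -0.20 at 12 months (adjusted p = 0.0417), a call lost under 12 of 25 alternatives. Among these were the removal of any N40K library or wild type replicate 1 or 3 at 12 months, and of N40K replicate 3 or wild type replicate 2 at 3 months. Csnk1d, a casein kinase 1 gene, differed by 0.11 at 3 months (adjusted p = 0.0491), a call lost under 22 of 25 alternatives, and Brsk2 by 0.10 averaged over both ages (adjusted p = 0.0314), a call lost under 12 of 24.

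Of 22 tau phosphatase subunits and modulators, 8 fell and 0 rose in N40K at 12 months, 3 fell at 3 months, and 5 fell averaged over both ages. Of all tested genes, 7.71% were lower at 12 months, 3.49% at 3 months and 9.54% averaged. Their median log2 difference was -0.11 at 12 months, -0.02 at 3 months and -0.07 averaged, against 0.01, 0.02 and 0.01 over all genes. The 12-month count was unstable, at 1 with each age fitted alone, 2 under quantile normalization, 1 without N40K replicate 2 or replicate 3 at 12 months, 3 without N40K replicate 1 and 2 without wild type replicate 2 at that age. It was 5 without N40K replicate 1 or 3, or wild type replicate 1 or 2, at 3 months. The 3-month count was 1 without N40K replicate 1 or 3 or any wild type library at 3 months. The averaged count was 8 under median-ratio scaling and with the length or GC trend removed.

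The 3 calcineurin subunits on the list led it. Calcineurin is the calcium-dependent phosphatase that dephosphorylates tau at several sites. Ppp3cb, a catalytic subunit, had 80.6, 78.2 and 79.8 FPKM in N40K and 89.6, 108 and 95.4 FPKM in wild type at 12 months, and 85.9, 81.6 and 83.5 FPKM in N40K and 106, 108 and 101 FPKM in wild type at 3 months. It fell by 0.29 at 12 months (limma adjusted p = 0.00732) and by 0.33 at 3 months (adjusted p = 0.00543), without overlap and under all 25 alternatives at each age. Ppp3ca, the other catalytic subunit listed, had 436 to 491 FPKM in N40K and 511 to 569 FPKM in wild type at 12 months, and 459 to 501 FPKM in N40K and 543 to 564 FPKM in wild type at 3 months. The regulatory subunit Ppp3r1 had 259 to 280.4 FPKM in N40K and 299.6 to 356 FPKM in wild type at 12 months, and 279.7 to 294 FPKM in N40K and 329.8 to 346 FPKM in wild type at 3 months. Averaged over both ages, Ppp3ca fell by 0.23 (adjusted p = 0.00269) and Ppp3r1 by 0.25 (adjusted p = 0.00214), under all 24 alternatives. By age these 2 genes were less stable than Ppp3cb. Their 12-month calls were lost under 6 (Ppp3ca) and 3 (Ppp3r1) of 25 alternatives. Each 3-month call was lost under 9 of 25, with limma adjusted p up to 0.111 for Ppp3ca and 0.114 for Ppp3r1. Ppp3r1 overlaps Wdr92 on the same strand, so its value is uncertain. Ppp1cb, a catalytic subunit of protein phosphatase 1, fell by 0.14 averaged over both ages (adjusted p = 0.0140). Pan-neuronal markers fell beside these genes, while the pyramidal and granule neuron list did not have a negative median, as given above, and the part of either in these differences was not tested.

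**Figure D5:**
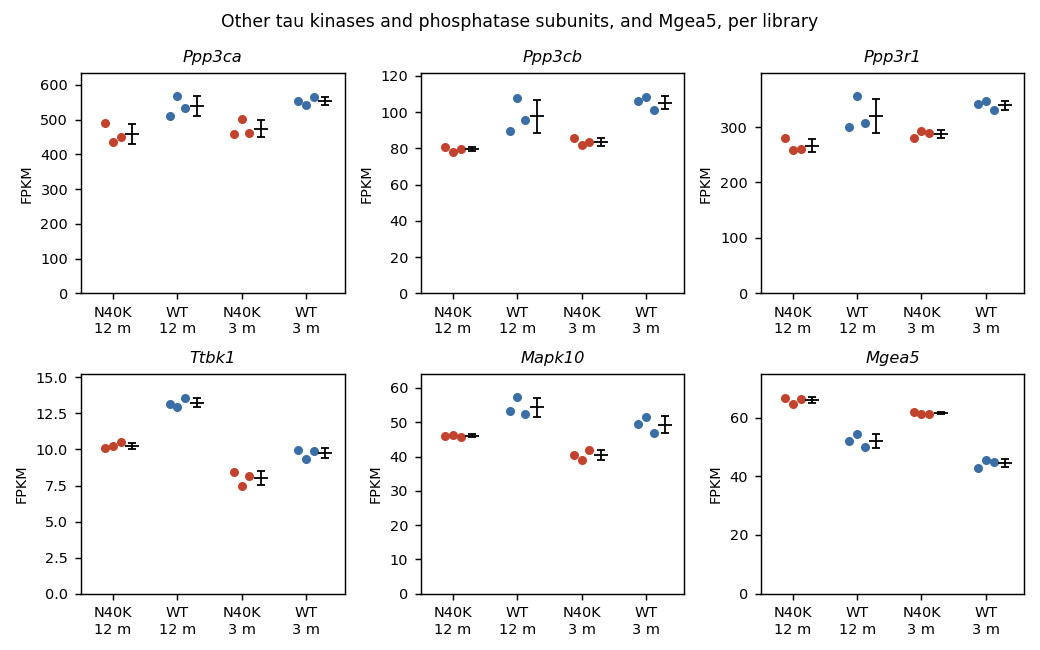
FPKM per library (red dots N40K, blue dots wild type, black bars mean ± SD of 3 libraries) of 3 calcineurin subunits, Ttbk1, Mapk10 and Mgea5. The first 5 genes lie lower in N40K at each age and Mgea5 lies higher, without overlap.

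Of 15 other enzymes and chaperones that modify or bind tau, 3 rose and 3 fell in N40K at 12 months, and 3 rose at 3 months. Averaged over both ages, 5 rose and 4 fell. The shares over all tested genes were 11.2% higher and 7.71% lower at 12 months, 7.95% and 3.49% at 3 months, and 15.5% and 9.54% averaged. Mgea5 (also named Oga), the enzyme that removes O-GlcNAc from tau and other proteins, had 66.8, 64.7 and 66.2 FPKM in N40K and 51.9, 54.3 and 49.8 FPKM in wild type at 12 months. The 3-month values were 61.9, 61.3 and 61.3 FPKM in N40K and 42.8, 45.4 and 45.0 FPKM in wild type. It rose by 0.34 at 12 months (limma adjusted p = 3.54e-04) and by 0.46 at 3 months (adjusted p = 5.74e-05), without overlap and under all 25 alternatives at each age. The chaperone Hspa8 fell by 0.37 at 12 months (adjusted p = 0.00617), the co-chaperone Fkbp4 fell by 0.32 (adjusted p = 0.00637), and the acetyltransferase Crebbp rose by 0.30 (adjusted p = 0.0186), the last call being lost without N40K replicate 1 or 3 at that age. Bag2, a co-chaperone that directs tau to the proteasome, rose by 0.23 at 3 months (adjusted p = 0.0115). The ubiquitin ligase gene Stub1, which overlaps Jmjd8, differed by 0.19 at 3 months (adjusted p = 0.0284), a call lost under 10 of 25 alternatives. Hsp90aa1, a cytosolic heat shock protein 90 gene, fell by 0.25 averaged over both ages (adjusted p = 0.0108). The 12-month count was 3 with each age fitted alone, and 3 without N40K replicate 1 or replicate 3 at that age. The averaged count of 9 was 5 without N40K replicate 1 at either age or wild type replicate 1 at 3 months.

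Of 23 upstream regulators of these kinases, 1 rose and 3 fell at 12 months, 2 rose at 3 months and 3 rose averaged over both ages. The shares over all tested genes were 11.2% higher and 7.71% lower at 12 months, 7.95% and 3.49% at 3 months, and 15.5% and 9.54% averaged. Strada, a pseudokinase partner of the Mark-activating kinase LKB1, rose by 0.53 at 12 months (limma adjusted p = 0.00364), to 13.6 ± 0.629 FPKM in N40K against 9.22 ± 1.49 FPKM in wild type, but it overlaps Ccdc47 on the same strand. Taok2, a kinase that can activate Mark kinases, rose by 0.16 averaged over both ages (adjusted p = 0.0154). The Cdk5 binding partner Cables1 and the Gsk3 regulators Gskip and Frat2 differed by -0.17, -0.27 and -0.31 at 12 months (adjusted p = 0.0410, 0.0372 and 0.0376), and each call was lost under 8 to 12 of its alternatives. At 3 months Cables1 had 6.06 to 6.75 FPKM in N40K and 5.36 to 5.80 FPKM in wild type, higher in N40K without overlap, with a difference of 0.17 that did not pass (adjusted p = 0.0700). The 3-month differences of Gskip and Frat2 were -0.05 (adjusted p = 0.777) and 0.04 (adjusted p = 0.816). The interaction term of Cables1, -0.34, did not pass (adjusted p = 0.130). Akt1, which phosphorylates and inhibits the Gsk3 kinases, differed by 0.16 at 3 months (adjusted p = 0.0281), a call lost under 9 of 25 alternatives. The 12-month count was 1 without N40K replicate 1 or 2, or wild type replicate 2, at that age, as the Cables1, Gskip and Frat2 calls then ended. It was also 1 when every gene was tested, with Xist as a covariate or with each age fitted alone. With Ttr as a covariate or the replicate block it was 2. The 3-month count was 0 under median-ratio scaling, with Xist as a covariate, with the length or GC trend removed, and without N40K replicate 1 or 3 or wild type replicate 2 or 3 at 3 months. It was 1 without N40K replicate 2 at 3 months, any N40K library at 12 months or wild type replicate 3 at 12 months. The 3-month count was also 1 when every gene was tested, under quantile normalization, with Ttr as a covariate or with each age fitted alone. The averaged count of 3 was 5 under quantile normalization or without wild type replicate 1 at 12 months.

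Of 19 other microtubule-associated proteins, 2 rose and 2 fell at 12 months, and 1 rose at 3 months. Averaged over both ages, 3 rose and 2 fell. The shares over all tested genes were 11.2% higher and 7.71% lower at 12 months, 7.95% and 3.49% at 3 months, and 15.5% and 9.54% averaged. Dcx, the doublecortin gene of immature neurons, had 3.27, 3.62 and 2.63 FPKM in N40K and 1.98, 1.62 and 2.06 FPKM in wild type at 12 months. It rose by 0.53 at that age (limma adjusted p = 0.00413), and at 3 months the difference was 0.23 (adjusted p = 0.155). Mapre2, a plus-end binding protein, fell by 0.20 at 12 months (adjusted p = 0.0130), a call lost without N40K replicate 1 at that age. Map2, tau's relative in dendrites, had 142 to 155 FPKM in N40K and 143 to 155 FPKM in wild type at that age. Map7 differed by 0.25 (adjusted p = 0.0214) and Stmn3 by -0.26 (adjusted p = 0.0385) at 12 months, calls lost under 4 and 12 of 25 alternatives. Map1s differed by 0.23 at 3 months (adjusted p = 0.0176) and by 0.06 with the GC trend removed (adjusted p = 0.505). The 12-month count was 1 without N40K replicate 1 at that age. It was 2 without N40K replicate 2 at that age or with each age fitted alone. The 3-month count of 1 was 0 with the GC trend removed and without N40K replicate 2 or wild type replicate 2 or 3 at 3 months, and 2 without wild type replicate 2 at 12 months. The averaged count was 3 without N40K replicate 1 or 2 at 12 months, or N40K replicate 2 or wild type replicate 1 or 2 at 3 months.

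The genes whose values most resembled those of a member over the 12 libraries were ranked by Pearson's r of log2(FPKM + 1), as a description only, since all share the libraries' age and length trends. For Mapt they were Rspo2 (0.973), Ctnnd2 (0.964) and Cyfip2 (0.955). For Cdk5 they were Haghl (0.977), Wdr54 (0.973) and Glt25d1 (0.972), and for Cdk5r1 they were Emc8 (0.951), Lysmd1 (0.946) and Pcnp (0.944). For Gsk3b they were Gabrb2 (0.985), Spag9 (0.985) and Kcnj6 (0.984), and for Gsk3a they were Pard6a (0.981), the overlapping 9130221H12Rik (0.977) and Ndufaf3 (0.968). The highest values were 0.902 for Cdk5r2 (Cdk2ap1), 0.923 for Mark1 (Sp2), 0.985 for Mark2 (Rhbdf1) and 0.950 for Mark4 (Gtf3a).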

How the data were processed

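Poly-A RNA libraries were made with TruSeq kits and sequenced as 100 bp read pairs on a HiSeq, per the labels' protocols. The authors deposited FPKM for 23352 entries, 128 of them with joined gene names. CASAVA, STAR, BWA and mm9 appear in the submitters' processing notes without roles or versions, and which counter, annotation and strand option were used is not given in the sources used here. All 12 columns were mapped by library name, with 0 left over. Depth was estimated by trying a range of depths on low FPKM of receptor genes. At the depth taken, these values lay within 0.05 of a whole read in 56.2% to 77.4% of cases. The estimate is approximate, a multiple of the true depth is possible, and no count test was run.

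Genes reaching 1 FPKM in 3 or more of 12 libraries were tested as log2(FPKM + 1) with limma 3.58.1 in R 4.3.3: 1 model with 4 group means, 6 contrasts, eBayes with trend, two-sided, Benjamini-Hochberg adjustment over 13945 genes and a threshold of 0.05. A fold on this scale understates the change of low genes. The procedure was tested on simulated data. Lengths and GC content came from GENCODE M21 (22903 entries, 98.1%, matched by name) and promoter sequences from RefSeq, both on GRCm38 and not on the authors' build.

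Members and gene lists were chosen with earlier results of these data known. Named genes were the 9 members, Snrnp70, and of each list the up to 4 called genes with the smallest p per genotype contrast; Map2 and Mapk13 were named besides, chosen after their values were seen. Settings tried besides were adding 0.1 or 0.5 before the log, testing every gene, requiring a mean of 5 FPKM or more, quantile normalization, median-ratio scaling, a covariate (Ttr or Xist), eBayes in its robust form, a block for replicate number, a separate fit per age, subtracting a lowess curve (span 0.3) fitted per library on GC content or on length, and dropping 1 library at a time. Tables and plots used Python 3.11.15 (numpy 2.4.6, pandas 2.3.3, matplotlib 3.10.9).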

Additional observations from a re-analysis of the deposited data

How the results depend on the processing

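Of 1314 values of the 9 genes under the alternatives, 1199 kept their direction and their side of the threshold. With their direction kept, 49 lost a call and 14 gained one. The other 52 changed sign and are counted only there, also where a call was lost or gained with the sign. The averaged Cdk5 and Cdk5r1 calls held under all 24 alternatives. At 12 months 1499 genes were called with each age fitted alone, and 1 member (Cdk5r1) under quantile normalization. At 3 months the count of members called was 0 with Xist or Ttr as a covariate, robust eBayes, the replicate block or each age fitted alone. The interaction had 0 genes called with Xist as a covariate or the block, 4 after length-trend removal and 3 after GC-trend removal, against 9. For age in N40K, 4626 genes and 1 member were called with the length trend removed, and 3 members under median-ratio scaling or quantile normalization. For age in wild type, 1 member was called with the length trend removed. The causes were not tested.

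Leaving out 1 library gave 1356 to 2607 genes and 0 to 1 members at 12 months, 797 to 2226 genes and 0 to 2 members at 3 months, 2732 to 3480 genes and 2 to 3 members for the average, 0 to 162 genes and 0 members for the interaction, 6039 to 7826 genes and 4 to 6 members for age in N40K, and 4676 to 5741 genes and 2 to 5 members for age in wild type. Without wild type replicate 2 at 12 months, 1 member was called at 12 months and 2 at 3 months. The 162 genes arose without N40K replicate 1 at 3 months, and 20 without wild type replicate 3 at 12 months. A left-out library's group kept 2 libraries, with the spread shared over all groups.

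Replicate numbers were not taken as pairs in the main model. Deviations of same-numbered libraries correlated at 0.0727, 0.00108 and 0.197 at 12 months and 0.0569, -0.456 and -0.349 at 3 months. Those of differently numbered libraries correlated at -0.216 to 0.181 at 12 months and -0.217 to 0.485 at 3 months. So few values cannot decide whether libraries are paired. With the replicate block, 2343 genes were called at 12 months, 1310 at 3 months and 3286 in the average of the ages.

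Sign changes for genotype were small. At 3 months Gsk3a was -0.0017 after length and -0.059 after GC removal, Mark1 was -3.4e-04 under quantile normalization and Mark4 was -0.0073 with the GC trend removed. At 12 months Mapt was 0.029 and Mark4 5.7e-04 under quantile normalization, and Gsk3b was -0.018 with the length trend removed. Averaged, Gsk3a was 0.0050 under quantile normalization, Mark4 -0.015 with the GC trend removed, and Gsk3b -0.0089 under median-ratio scaling, -2.6e-04 with Ttr and -0.030 with the length trend removed. For the interaction, median-ratio scaling, quantile normalization and GC removal gave Mapt 0.025, 0.076 and 0.022 and Cdk5r1 0.0066, 0.039 and 0.013, and GC removal gave Cdk5r2 0.089. For age in N40K, Cdk5r1 was 0.10, 0.13, 0.048 and 0.16 under median-ratio, quantile, length and GC settings, and GC removal gave Cdk5r2 0.22, Gsk3a 0.028, Mark2 0.071 and Mark4 0.082. For age in wild type, Cdk5r2 was 0.0014, 0.0062, 0.037 and 0.13 under the same settings, Gsk3a was 0.0013 with length and 0.080 with GC removed, Mark1 was 0.012 under median-ratio scaling and 0.0092 under quantile normalization, and Mark4 was 0.10 with GC removed. Leaving out 1 library gave both signs for Gsk3a (-0.0089 to 0.080) and Mark1 (-0.011 to 0.061) at 3 months, Gsk3b averaged (-0.0083 to 0.017), the interaction of Mapt (-0.033 to 0.013), Cdk5r1 (-0.054 to 0.016) and Mark2 (-0.061 to 0.093), age in N40K of Cdk5r1 (-0.017 to 0.011) and Mark1 (-0.0052 to 0.068), and age in wild type of Cdk5r1 (-0.019 to 0.051).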
